A study of Rattus norvegicus with 8 samples.

Results

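The glucocorticoid receptor, its nearest receptor relative, their chaperones and a set of their best known target genes were followed in the lumbar spinal cord of rats exposed to chronic stress. The 10 genes were chosen by their names on the array, with earlier results of these data known. The set holds the receptors Nr3c1 and Nr3c2, the immunophilins Fkbp5 and Fkbp4, the enzyme Hsd11b1, and the target genes Sgk1, Tsc22d3, Dusp1, Zbtb16 and Errfi1. These genes are carried by 12 of the 30367 probes of the array, under 10 of its 26514 gene names. All 10 genes were measured and tested, among 20685 tested names.

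The tissue was the lumbar L6S1 segment of the cord of male Wistar rats aged 12 weeks, with the meninges removed. The 4 stressed rats underwent water avoidance (WA) stress, daily sessions on a small platform surrounded by water, on 10 consecutive days, and tissue was taken 24 h after the last session. The 4 control rats had the same sex, strain and age and were handled instead. RNA of each rat was labelled with Cy3 and hybridised to 1 array of an Agilent 1-colour rat gene expression slide, so n = 4 rats in each group throughout.

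Corticosterone, the main glucocorticoid of the rat, enters cells freely and binds 2 nuclear receptors. The mineralocorticoid receptor, encoded by Nr3c2, holds the hormone tightly at resting levels, while the glucocorticoid receptor, encoded by Nr3c1, is filled as levels rise in the daily peak and in stress. Unliganded receptor is held in the cytoplasm by heat shock proteins and by FK506-binding immunophilins. After binding hormone it moves to the nucleus, where it binds paired short motifs in DNA and induces genes such as Fkbp5, Sgk1, Tsc22d3 and Dusp1. In the cord these receptors are found in neurons and in glia.

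Of the 10 genes, Sgk1 and Zbtb16 were higher in stressed rats at a false discovery rate (FDR) below 0.1, and none was lower. Sgk1 was 2.51 fold and Zbtb16 1.41 fold as high as in control rats. Among all 23677 tested probes, 885 (3.74%) passed the same threshold, of which 655 (2.77%) were higher and 230 (0.971%) lower in stressed rats. Dusp1 lay higher and Fkbp5 lower in every stressed rat than in every control rat, but neither passed the threshold. Groups that did not overlap were found at 12.1% of all tested probes. The receptors Nr3c1 and Nr3c2, and Fkbp4, Hsd11b1, Tsc22d3 and Errfi1, overlapped between the groups.

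Values are the log2 processed signal of a probe minus the 75th percentile of its array, so 0 stands for a bright probe at that percentile. Before the log, that percentile was a signal of 1751 to 1945 in the stressed rats and 1841 to 2335 in the control rats. The scaled values were compared between groups with limma, and the Benjamini-Hochberg adjustment of the p values covered every tested probe. The exact permutation test beside them is two-sided, over 70 labelled choices of 4 of the 8 arrays, and can give no p below 0.0286. The brightest probe stands for a gene, and levels of different probes were not set against each other.

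The 8 arrays shared 1 slide. Its row 1 held the stressed rats and its row 2 the control rats, so slide row and stress cannot be told apart. Control replicate 2 stood apart from the rest of its group. On the first principal component (54.1% of the variance) it lay at 46.1, near the stressed rats (8.23 to 34.5), while control replicates 1, 3 and 4 lay at -56.3 to -39.4. The same division appeared in the 5′ minus 3′ log2 signal, a median over 2029 transcripts whose probes were 300 bases or more apart. It was 0.19 in control replicate 2 and 0.09 to 0.16 in the stressed rats, against -0.27 to -0.16 in the other control rats. The 10 genes are therefore given with and without control replicate 2, and with the 5′ minus 3′ signal as a covariate. Other genes are given so where the call, the sign or the size changed. The part of either in a result was not tested beyond these values. Among the control rats, only control replicate 2 had a 5′ minus 3′ signal near the range of the stressed rats. All fits with this covariate therefore rest largely on 1 array, control replicate 2. At FDR below 0.1, 2317 of the 23677 tested probes passed with the covariate and 10038 without control replicate 2. These counts stand beside every pass given below for either fit.

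The sequences below show what the probes and promoters behind the main results look like. A reading frame is open along the 60 bases of 11 of the 12 probes, which alone does not show that a probe is coding, and 3 of these 11 were chosen by hand to be printed. The Zbtb16 probe lies on the minus strand at chr8:51934505-51934564 of rn4, the assembly the array files use, and the Dusp1 probe on the plus strand at chr10:16944342-16944661. The Dusp1 probe spans 320 bases of the genome, more than its own length, and so crosses an intron. The upstream probe of Nr3c2, on the minus strand at chr19:32530204-32530263, is open up to its last codon, where the capitals mark the stop codon of that frame.
Zbtb16: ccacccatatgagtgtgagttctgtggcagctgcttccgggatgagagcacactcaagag
Dusp1: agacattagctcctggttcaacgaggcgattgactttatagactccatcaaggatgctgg
Nr3c2 upstream: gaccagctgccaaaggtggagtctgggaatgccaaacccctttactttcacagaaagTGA

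Promoters were available from RefSeq (GRCr8) for 7 of the 10 genes, as 12 windows of 250 bases before to 50 bases after a start site. The glucocorticoid receptor site was searched on both strands as AGAACA, 3 bases of any kind and the inverted repeat of AGAACA, written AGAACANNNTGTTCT. None of the 12 windows held the full site, which 0.0149% of 33469 promoters did. None held it with at most 2 mismatches either, a match found in 1.87% of all promoters, and none held AGAACA alone on either strand, found in 20.7%. The bases before a start site are printed for the target that rose most, Sgk1, and for Fkbp5, the target that lay lower. Both lie on the minus strand, Sgk1 at chr1:24804832-24805081 and Fkbp5 at chr20:6543556-6543805. Capitals mark the 15 bases closest to the full site in the whole window, with 4 mismatches in Sgk1 and 6 in Fkbp5. Sgk1 has 2 other listed start sites, with 5 mismatches at each. A site farther from the start would lie outside these windows.
Sgk1 promoter: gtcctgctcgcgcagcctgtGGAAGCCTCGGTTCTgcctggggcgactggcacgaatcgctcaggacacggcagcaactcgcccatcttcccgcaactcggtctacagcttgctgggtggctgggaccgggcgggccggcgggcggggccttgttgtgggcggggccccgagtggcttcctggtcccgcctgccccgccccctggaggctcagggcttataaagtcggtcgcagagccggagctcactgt
Fkbp5 promoter: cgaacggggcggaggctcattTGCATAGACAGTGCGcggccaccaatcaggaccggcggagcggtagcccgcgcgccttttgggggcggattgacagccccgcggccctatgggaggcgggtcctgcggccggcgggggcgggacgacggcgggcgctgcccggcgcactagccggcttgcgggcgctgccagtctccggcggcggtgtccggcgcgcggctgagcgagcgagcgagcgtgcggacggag

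**Figure D1:**
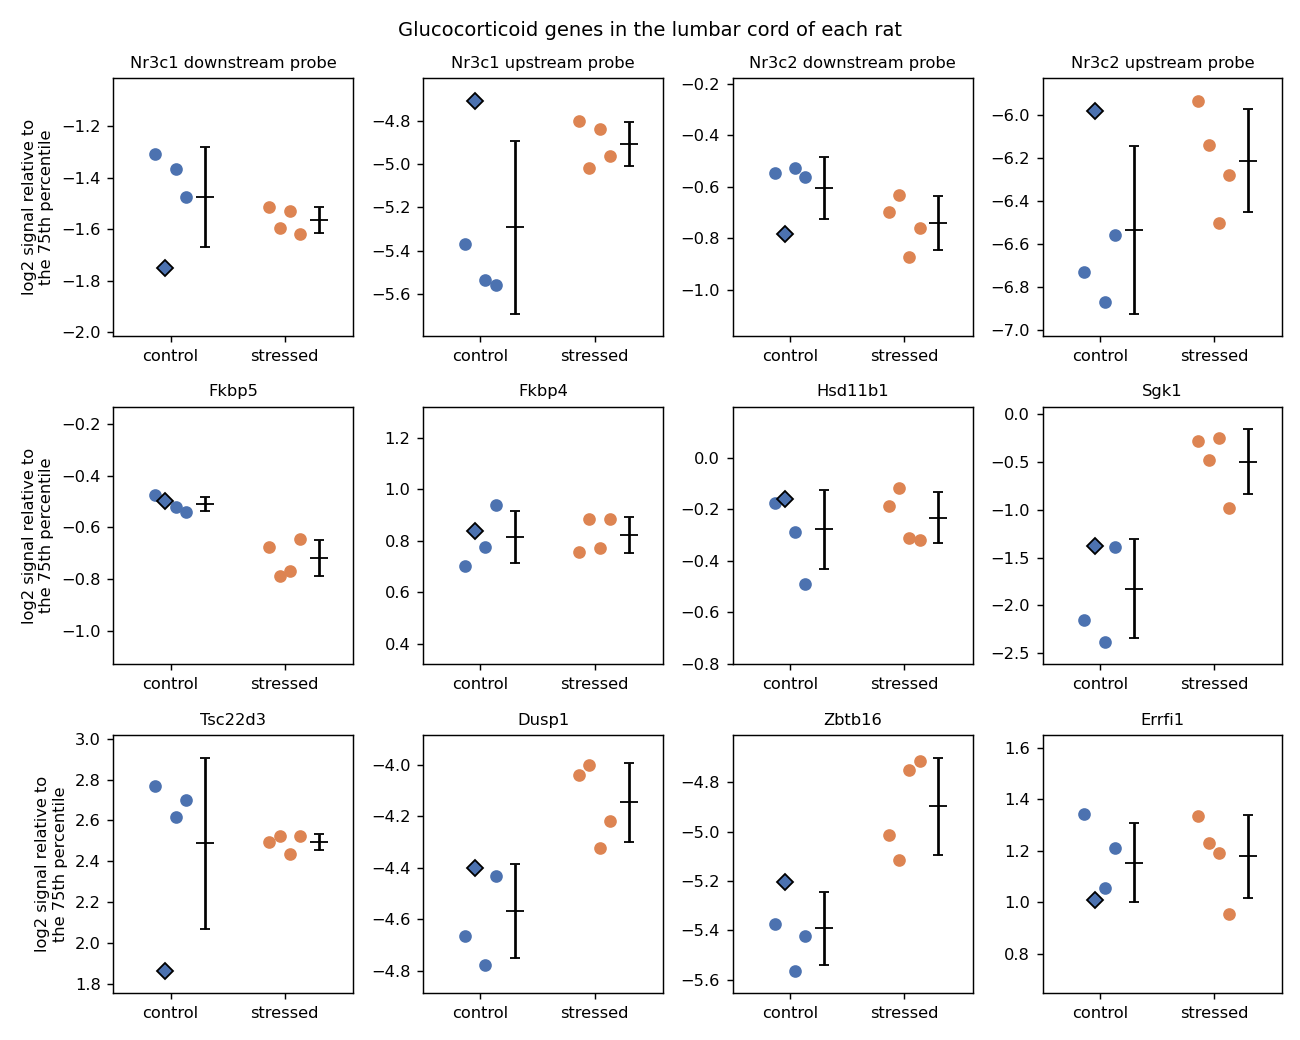
Log2 signal relative to the 75th percentile (vertical axis) of each of the 12 probes in each control rat (blue) and stressed rat (orange), with the mean and SD of 4 rats beside the points. The black-edged diamond is control replicate 2, and the groups do not overlap for Sgk1, Zbtb16, Dusp1 and Fkbp5.

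The downstream probe of Nr3c1, the glucocorticoid receptor, lies on the minus strand at chr18:32371607-32371666. Its signal was -1.31, -1.75, -1.37 and -1.48 in control replicates 1 to 4 and -1.51, -1.60, -1.53 and -1.62 in the stressed rats. The stressed rats lay within the range of the control rats, which was set by control replicates 1 and 2. The log2 difference, stressed minus control, was -0.09 (SE 0.10, 95% interval -0.33 to 0.15, limma adjusted p = 0.639). Without control replicate 2 it was -0.18 (adjusted p = 0.0695), in a fit that called 10038 of the 23677 probes. With the 5′ minus 3′ covariate it was 0.13 (adjusted p = 0.381).

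Nr3c2, the mineralocorticoid receptor, was read by a downstream probe at chr19:32528010-32528068 on the minus strand. Its signal was -0.55, -0.78, -0.53 and -0.56 in the control rats and -0.70, -0.63, -0.87 and -0.76 in the stressed rats. Only control replicate 2 lay among the stressed rats, and the other control rats lay above them all. It differed by -0.14 on the log2 scale (SE 0.09, 95% interval -0.34 to 0.07, limma adjusted p = 0.404). Without control replicate 2 it was -0.20 (adjusted p = 0.0736), and with the covariate 0.00 (adjusted p = 0.990).

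Each receptor has a second, dimmer probe upstream of the first, and the sign of the difference turned there. The upstream probe of Nr3c1 (chr18:32375401-32375460) gave -5.37, -4.71, -5.53 and -5.56 in the control rats and -4.80, -5.02, -4.84 and -4.96 in the stressed rats. Its log2 difference was 0.38 (SE 0.19, limma adjusted p = 0.287), and control replicate 2 was the highest rat of all. The upstream probe of Nr3c2, printed above, gave -6.73, -5.98, -6.87 and -6.56 in the control rats and -5.93, -6.14, -6.50 and -6.28 in the stressed rats. Again control replicate 2 lay with the stressed rats, and the log2 difference was 0.32 (SE 0.21, limma adjusted p = 0.399). The processed signal of this probe was only 20.2 to 29.2 on any array, against a lowest signal well above background of 12.8 to 16.1. Its 2 spots on an array differed by up to 0.79 on the log2 scale, and those of the upstream Nr3c1 probe by up to 0.42. Both exceed the group difference of the probe.

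The gap between both ends was measured in each rat, as the upstream minus the downstream probe, each centred over the 8 arrays. For Nr3c1 it was -0.59 to -0.48 in control replicates 1, 3 and 4, 0.62 in control replicate 2 and 0.16 to 0.29 in the stressed rats (exact permutation test of the group difference, p = 0.143). For Nr3c2 it was -0.64 to -0.29, 0.50 and 0.07 to 0.47 in the same order (exact permutation test, p = 0.143). For both receptors the gap thus divided the 8 rats as the 5′ minus 3′ signal over all transcripts did, with control replicate 2 beside the stressed rats. With the mean of both probes standing for the gene, the log2 difference was 0.15 for Nr3c1 (limma adjusted p = 0.351) and 0.09 for Nr3c2 (limma adjusted p = 0.641). No direction was therefore settled for either receptor, and the intervals of the downstream probes leave out a log2 difference of 1 in either direction.

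**Figure D2:**
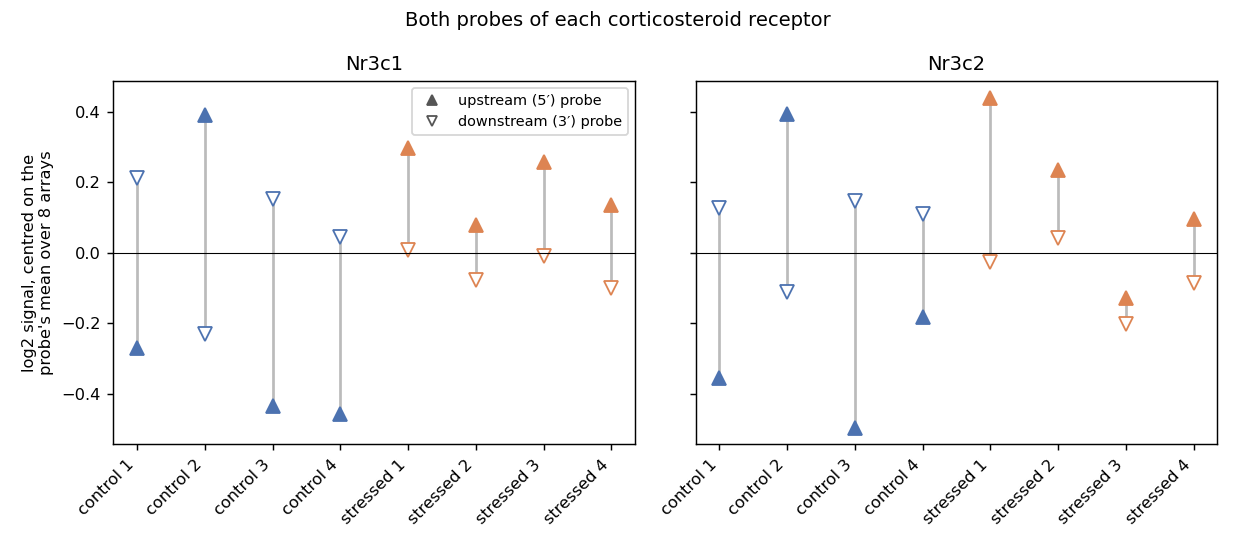
Log2 signal, centred on the mean of the probe over 8 arrays (vertical axis), of the upstream probe (filled triangles) and the downstream probe (open triangles) of Nr3c1 and Nr3c2 in each rat. The upstream probe lies above the downstream probe in control replicate 2 and all stressed rats and below it in control replicates 1, 3 and 4.

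Fkbp5 encodes FKBP51, an immunophilin that lowers the hormone affinity of the glucocorticoid receptor and is itself induced by it, which closes a short feedback loop. Its probe (chr20:6637600-6637659, minus strand) gave -0.47, -0.50, -0.52 and -0.54 in the control rats and -0.68, -0.79, -0.77 and -0.64 in the stressed rats. Every stressed rat lay below every control rat, including control replicate 2, which lay in the middle of its own group. Fkbp5 was at -0.51 ± 0.03 (SD, n = 4) in control rats and at -0.72 ± 0.07 (SD, n = 4) after stress. This was a log2 difference of -0.21 (SE 0.07, 95% interval -0.36 to -0.06), a fold of 0.864, with a limma adjusted p of 0.152 and an exact permutation p of 0.0286. Over 20 alternative settings the difference stayed between -0.24 and -0.18, although settings that changed only the filter, the variance estimate or the probes tested could not move it. Fkbp5 passed FDR 0.1 only with array weights (adjusted p = 0.0129) and without control replicate 2 (log2 difference -0.21, adjusted p = 0.0380). Under these settings 11983 and 10038 probes passed. With the covariate the difference was -0.21 (adjusted p = 0.168) and with a normexp background correction -0.18 (adjusted p = 0.322).

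Fkbp4 encodes FKBP52, the immunophilin that takes the place of FKBP51 as the receptor binds hormone and links it to nuclear transport. Its probe (chr4:165450629-165450688, minus strand) gave 0.70, 0.84, 0.78 and 0.94 in the control rats and 0.76, 0.88, 0.77 and 0.88 in the stressed rats. The groups overlapped fully, with a log2 difference of 0.01 (SE 0.08, 95% interval -0.17 to 0.19, limma adjusted p = 0.958). It was 0.02 without control replicate 2 (adjusted p = 0.882) and -0.03 with the covariate (adjusted p = 0.887). The interval of Fkbp5 and that of Fkbp4 overlap, and a difference between the responses of both immunophilins was not tested.

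Hsd11b1 encodes the enzyme that turns inactive 11-dehydrocorticosterone back into corticosterone within cells. Its probe (chr13:109063624-109063683, minus strand) gave -0.18, -0.16, -0.29 and -0.49 in the control rats and -0.19, -0.12, -0.31 and -0.32 in the stressed rats. Apart from control replicate 4, which was lowest, the rats of both groups overlapped. The group means differed by 0.05 on the log2 scale (SE 0.10, 95% interval -0.18 to 0.27, limma adjusted p = 0.802). The difference was 0.09 without control replicate 2 (adjusted p = 0.524) and -0.02 with the covariate (adjusted p = 0.952).

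Among the target genes, Sgk1 showed the largest difference. It encodes serum and glucocorticoid regulated kinase 1, which acts on ion channels and transporters. In white matter of the brain it is known as a corticosteroid-responsive gene of oligodendrocytes. Its probe (chr1:23501718-23501777, minus strand) gave -2.15, -1.37, -2.38 and -1.39 in the control rats and -0.28, -0.48, -0.24 and -0.98 in the stressed rats. Every stressed rat lay above every control rat, with stressed replicate 4 nearest to control replicates 2 and 4. Sgk1 was at -1.82 ± 0.52 (SD, n = 4) in control rats and at -0.50 ± 0.34 (SD, n = 4) after stress. Its log2 difference was 1.33 (SE 0.28, 95% interval 0.69 to 1.97, limma adjusted p = 0.0772), with an exact permutation p of 0.0286, and by p value its probe stood at place 434 of 23677. In these whole segments, more cells that express a gene and more RNA per cell cannot be told apart.

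The direction of Sgk1 held in all 20 alternative settings, with log2 differences from 0.81 to 1.56, and the call held in 11 of them. Settings that changed only the filter, the variance estimate or the probes tested could not move this difference. The count is therefore not one of independent checks. With the 5′ minus 3′ covariate the difference was 0.81 (adjusted p = 0.157). Without control replicate 2 it was 1.48 (adjusted p = 0.00843). Leaving out any 1 of the other 7 arrays gave 1.14 to 1.49 and ended the call, with adjusted p values from 0.121 to 0.215.

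Markers of oligodendrocytes were read beside Sgk1. Their mean level over 7 markers was 3.39 to 4.10 in the control rats, highest in control replicate 2, and 3.91 to 4.31 in the stressed rats. Of the 7 markers 6 lay higher in stressed rats and Mobp lay lower (-0.03), with a median log2 difference of 0.27. The astrocyte markers gave a like median of 0.26, with 5 of 7 higher, and 59.6% of all tested probes lay higher. At FDR below 0.1, 1 oligodendrocyte marker of 7 passed, where 3.74% of all tested probes did. That marker was Mog, a protein of the outer myelin surface (log2 difference 0.90, limma adjusted p = 0.0721). Without control replicate 2 its difference was 1.03 (adjusted p = 0.00397), but with the covariate it was 0.51 (adjusted p = 0.109) and with normexp 0.86 (adjusted p = 0.116). The covariate also took Cnp from 1.69 to 0.20, Cldn11 from 0.59 to 0.20 and Mbp from 0.27 to -0.09. The part of oligodendrocyte RNA in the difference of Sgk1 was not tested.

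Zbtb16 encodes PLZF, a zinc finger repressor that is induced by glucocorticoids in many cell types. Its probe, printed above, gave -5.37, -5.21, -5.56 and -5.42 in the control rats and -5.01, -5.11, -4.75 and -4.71 in the stressed rats. Every stressed rat lay above every control rat, with control replicate 2 nearest to them. Zbtb16 was at -5.39 ± 0.15 (SD, n = 4) in control rats and at -4.90 ± 0.20 (SD, n = 4) after stress. Its log2 difference was 0.50 (SE 0.12, 95% interval 0.22 to 0.77, limma adjusted p = 0.0982), with an exact permutation p of 0.0286.

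The Zbtb16 probe was dim, with a processed signal of 48.9 to 54.4 in the control rats and 54.0 to 74.3 in the stressed rats, and its 2 spots on an array differed by up to 0.43 on the log2 scale. With a normexp background correction the log2 difference was 0.26 (adjusted p = 0.663), with quantile normalization 0.29 (adjusted p = 0.239) and with the covariate 0.37 (adjusted p = 0.213). Without control replicate 2 it was 0.56 (adjusted p = 0.0122), and leaving out any other array gave 0.43 to 0.57 and ended the call, with adjusted p values from 0.179 to 0.276.

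Dusp1 encodes MKP-1, the phosphatase that switches off the MAP kinases p38 and JNK and carries part of the anti-inflammatory action of glucocorticoids. Its probe, printed above, gave -4.66, -4.40, -4.78 and -4.43 in the control rats and -4.04, -4.0, -4.32 and -4.22 in the stressed rats. In these scaled values the groups did not overlap, although stressed replicate 3 lay close to control replicates 2 and 4. In Dusp1 the log2 difference was 0.42 (SE 0.12, 95% interval 0.15 to 0.69), a fold of 1.34, with a limma adjusted p of 0.128. This probe was dim as well. Its processed signal before scaling overlapped between the groups, at 84.2 to 108 in the control rats and 96.6 to 117 in the stressed rats. The difference was 0.23 both with a normexp correction (adjusted p = 0.593) and with quantile normalization (adjusted p = 0.306). With the covariate it was 0.25 (adjusted p = 0.315). It passed FDR 0.1 without control replicate 2 (log2 difference 0.48, adjusted p = 0.0201), with array weights and without the filter on dim probes. Under these settings 10038, 11983 and 3010 probes passed, the last of 30357 tested.

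Tsc22d3 encodes GILZ, the glucocorticoid-induced leucine zipper protein, which restrains NF-kB and AP-1. Its probe (chrX:128336564-128336623, minus strand) was bright and gave 2.77, 1.86, 2.62 and 2.70 in the control rats and 2.49, 2.52, 2.44 and 2.52 in the stressed rats. The stressed rats lay close together, below control replicates 1, 3 and 4 and above control replicate 2. Over all rats the log2 difference was 0.01 (SE 0.19, 95% interval -0.44 to 0.45, limma adjusted p = 0.987). Its sign depended on control replicate 2: without that array the difference was -0.20 (adjusted p = 0.0418), and with the 5′ minus 3′ covariate it was 0.48 (adjusted p = 0.0605). Both of these passed FDR 0.1, in opposite directions, in fits that called 10038 and 2317 of the 23677 probes. The first leaves out control replicate 2 and the second rests largely on it, so neither settles the direction.

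Errfi1 encodes MIG-6, an inhibitor of the EGF receptor that is induced by growth factors and by glucocorticoids. Its probe (chr5:168025720-168025779, plus strand) gave 1.34, 1.01, 1.05 and 1.21 in the control rats and 1.34, 1.23, 1.19 and 0.95 in the stressed rats. The groups overlapped, and the log2 difference was 0.02 (SE 0.11, 95% interval -0.24 to 0.28, limma adjusted p = 0.916). It was -0.03 without control replicate 2 (adjusted p = 0.882) and 0.11 with the covariate (adjusted p = 0.714).

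**Figure D3:**
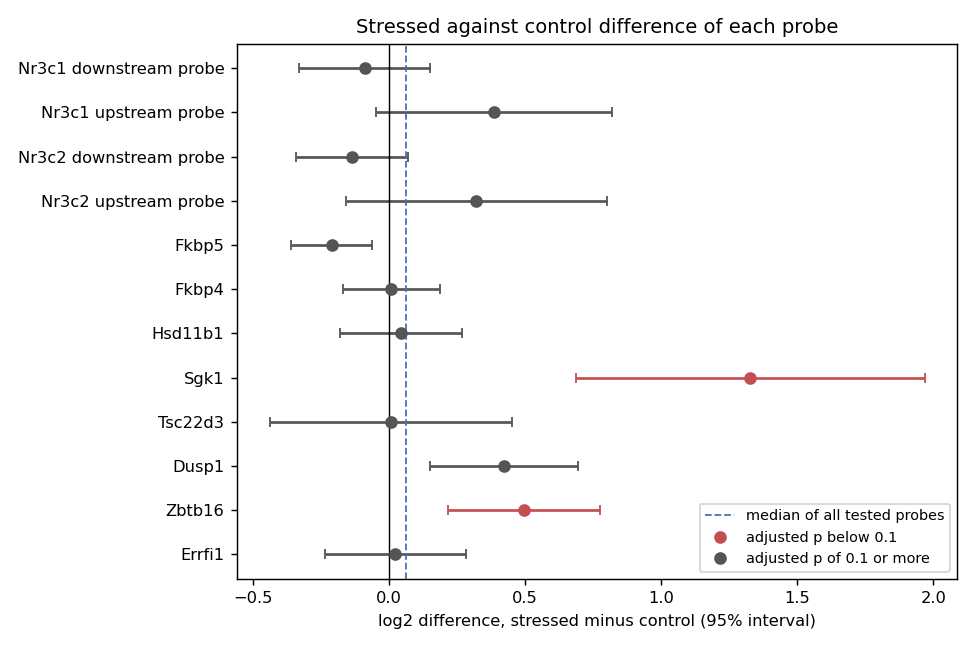
Log2 difference, stressed minus control, with its 95% interval (horizontal axis) for each of the 12 probes, red where the limma adjusted p was below 0.1. The intervals of Sgk1, Zbtb16, Dusp1 and Fkbp5 leave out 0, and the dashed line is the median of all tested probes at 0.06.

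The 10 genes did not move one way as a set. By their brightest probes 7 lay higher and 3 lower in stressed rats, with a median log2 difference of 0.02, against 0.06 over all 23677 tested probes. The groups did not overlap for 4 of the 10 genes, against 12.1% of all probes, with Sgk1, Zbtb16 and Dusp1 above and Fkbp5 below. The same 4 genes had an unadjusted p below 0.05, as had 20.3% of all tested probes. The 5 target genes ranged from 0.01 for Tsc22d3 to 1.33 for Sgk1.

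Single rats placed the genes differently. Control replicate 2 was the control rat nearest to the mean of the stressed rats for 5 of the 10 genes, namely Sgk1, Zbtb16, Dusp1, Fkbp4 and Nr3c2. Control replicate 1 was the highest of all 8 rats for Nr3c1, Fkbp5, Tsc22d3 and Errfi1. Control replicate 3 was the lowest of all for Sgk1, Zbtb16 and Dusp1. Among the stressed rats, replicate 3 was highest for Sgk1, replicate 2 for Dusp1 and replicate 4 for Zbtb16.

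**Figure D4:**
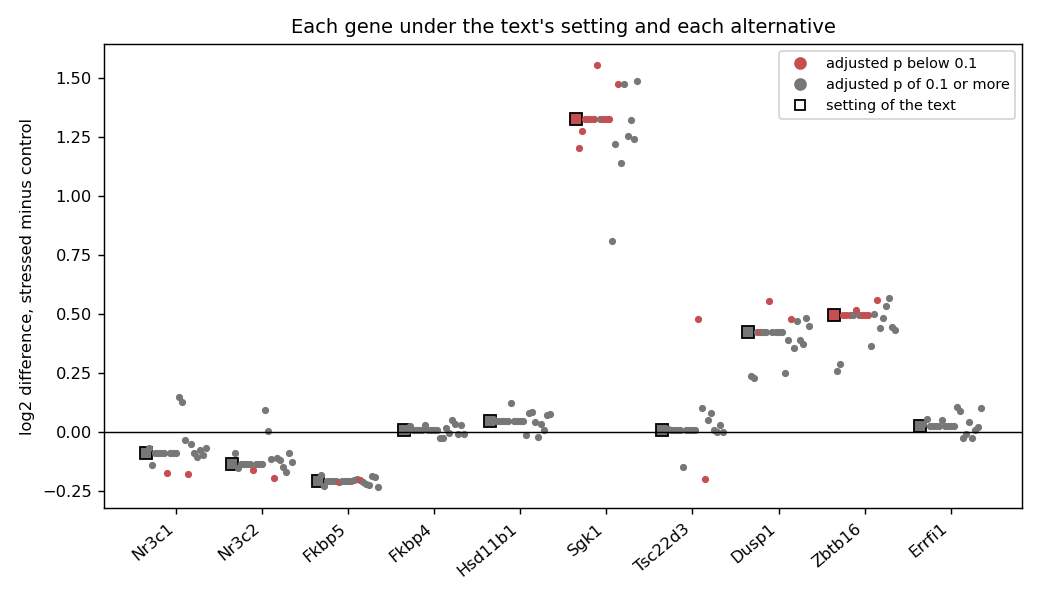
Log2 difference, stressed minus control (vertical axis), of each gene under the setting of the text (squares) and 20 alternatives (circles), red where the adjusted p was below 0.1. Sgk1, Zbtb16, Dusp1 and Fkbp5 kept their sign under each setting tried, while the other 6 genes changed sign under some.

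The genes whose profile over the 8 rats was most like that of a member were sought for Nr3c1 and Fkbp5, by the root mean square difference of centred log2 values over 13409 gene symbols. The nearest to Nr3c1 were Kpna1, an importin alpha that carries proteins into the nucleus, at 0.0347, the splicing factor gene Prpf38a at 0.0359 and Dnajc24 at 0.0365, against a median of 0.241 over all symbols. The nearest to Fkbp5 were Bscl2, which encodes the lipid droplet protein seipin, at 0.0193, the clathrin adaptor gene Ap2m1 at 0.0246 and Higd2a at 0.0277, against a median of 0.223. The log2 differences of these 3 were -0.24, -0.22 and -0.19. All 6 genes were picked for profiles like that of a member on the same arrays. Their differences therefore had to lie near that of the member and are no separate result.

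The other chaperones and cochaperones of the receptor, heat shock proteins and their partners, were measured by 14 of 16 listed genes. None passed FDR 0.1 with limma, 2 had an unadjusted p below 0.05, 6 lay higher and 8 lower in stressed rats, and the median log2 difference was -0.02. Over all tested probes, 20.3% had an unadjusted p below 0.05 in limma and 12.1% did not overlap between the groups. These shares stand beside the counts and single genes of this and the following lists. The smallest p value was that of Dnaja1, a DNAJ cochaperone of HSP70, which gave 2.45, 2.28, 2.35 and 2.43 in the control rats and 2.75, 2.85, 2.59 and 2.62 in the stressed rats. Every stressed rat lay above every control rat, and the log2 difference was 0.33 (SE 0.08, limma adjusted p = 0.110). It passed FDR 0.1 with the covariate (0.39, adjusted p = 0.0921), with quantile normalization (0.34, adjusted p = 0.0928) and without control replicate 2 (0.29, adjusted p = 0.0307), where 10038 of all probes did. Bag1, a nucleotide exchange factor of HSP70 that also binds the glucocorticoid receptor, had a log2 difference of -0.22 (SE 0.08, adjusted p = 0.198), which was -0.28 without control replicate 2 (adjusted p = 0.0125) and -0.09 with the covariate (adjusted p = 0.527). For Hspa4, a large HSP70 relative, the log2 difference was -0.21 (SE 0.12, adjusted p = 0.352). With the covariate it was -0.48 and passed (adjusted p = 0.0453), while without control replicate 2 it was -0.09 (adjusted p = 0.289).

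The coregulators that the receptor recruits to DNA are described here by 13 genes. None of these 13 passed FDR 0.1 with limma, and 3 had an unadjusted p below 0.05, as had 20.3% of all tested probes. Trim28, a corepressor of KRAB zinc finger proteins, gave 1.11, 1.28, 1.13 and 1.23 in the control rats and 0.88, 0.97, 0.86 and 1.04 in the stressed rats. Every stressed rat lay below every control rat (log2 difference -0.25, SE 0.08, adjusted p = 0.149). It passed with the covariate (-0.32, adjusted p = 0.0947) and without control replicate 2 (-0.22, adjusted p = 0.0492). Ncoa2, the p160 coactivator GRIP1, had a log2 difference of 0.55 (SE 0.17, adjusted p = 0.159). That was 0.18 with the covariate (adjusted p = 0.505) and 0.71 without control replicate 2 (adjusted p = 0.00433). For Carm1, an arginine methyltransferase that works with p160 coactivators, the difference was -0.20 (SE 0.08, adjusted p = 0.214). Of the 13 genes 8 lay higher and 5 lower, with a median log2 difference of 0.05.

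Of 9 genes of corticosteroid metabolism and transport, 7 were tested. Akr1c14, a steroid reductase, and Serpina6, which encodes the corticosteroid-binding globulin of plasma, were not well above background on enough arrays. None of the 7 passed FDR 0.1 and 1 had an unadjusted p below 0.05, with 3 higher, 4 lower and a median log2 difference of -0.01. Hsd11b2, the enzyme that inactivates corticosterone and so works against Hsd11b1, had a log2 difference of -0.29 (SE 0.11, limma adjusted p = 0.203). It was -0.35 without control replicate 2 (adjusted p = 0.0394), -0.19 with the covariate (adjusted p = 0.456), -0.11 with normexp (adjusted p = 0.860) and -0.49 with quantile normalization (adjusted p = 0.170). Star, which delivers cholesterol to steroid synthesis, had a difference of -0.16 (adjusted p = 0.535), which was 0.15 with the covariate, 0.06 with normexp and -0.29 without control replicate 2 (adjusted p = 0.0427). Abcb1a, an efflux pump of the blood vessel wall that exports corticosteroids, had a difference of 0.12 (adjusted p = 0.592), which was -0.06 with quantile normalization and 0.01 with the covariate.

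A further list held 27 genes known to be induced by glucocorticoids, of which 25 were tested. None passed FDR 0.1, and 17 lay higher and 8 lower in stressed rats, where 59.6% of all tested probes lay higher. In limma 6 had an unadjusted p below 0.05, as had 20.3% of all tested probes. Pdk4, described below without a test, is 1 of these 6. Their median log2 difference was 0.07, against 0.06 over all tested probes. Pdk4, a kinase that shuts off glucose oxidation in mitochondria, gave -7.85, -7.04, -8.47 and -7.57 in the control rats and -6.03, -6.49, -6.51 and -7.01 in the stressed rats. Its probe was well above background in all 4 stressed rats but in only 1 control rat. It thus entered the fit through the group where it was high, and its log2 difference of 1.22 is given as a description, with no test. That difference was 0.30 with normexp, 0.56 with the covariate, 1.04 with quantile normalization and 1.45 without control replicate 2. Rhob, a small GTPase of the endosome, gave 0.41, 0.46, 0.60 and 0.90 in the control rats and 0.92, 1.03, 1.03 and 1.20 in the stressed rats. Every stressed rat lay above every control rat (log2 difference 0.45, SE 0.12, adjusted p = 0.123), and it passed without control replicate 2 (0.41, adjusted p = 0.0474). Lcn2, a secreted iron-binding acute phase protein, lay lower in every stressed rat (-0.35, SE 0.11, adjusted p = 0.152). It passed without control replicate 2 (-0.39, adjusted p = 0.0303) and was -0.21 both with the covariate (adjusted p = 0.374) and with normexp (adjusted p = 0.523).

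The relatives of the 10 genes described here, 15 in number, include the progesterone receptor gene Pgr, other SGK kinases and other members of the TSC22, DUSP, FKBP and ZBTB families. None passed FDR 0.1 and none had an unadjusted p below 0.05. With 8 higher and 7 lower, their median log2 difference was 0.00. The smallest p values were those of Tsc22d1 (-0.17, limma adjusted p = 0.262), Fkbp2 (0.16, adjusted p = 0.306) and Tsc22d4 (0.26, adjusted p = 0.440). Tsc22d4 turned to -0.20 with the covariate (adjusted p = 0.223) and was 0.45 without control replicate 2 (adjusted p = 0.00982). Fkbp2 was 0.02 with the covariate (adjusted p = 0.897) and 0.22 without control replicate 2 (adjusted p = 0.0259). A dimmer probe of Tsc22d1 gave a log2 difference of 0.93 (SE 0.35, adjusted p = 0.204), so the sign of this gene differed between its probes, as it did for Nr3c1 and Nr3c2.

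**Figure D5:**
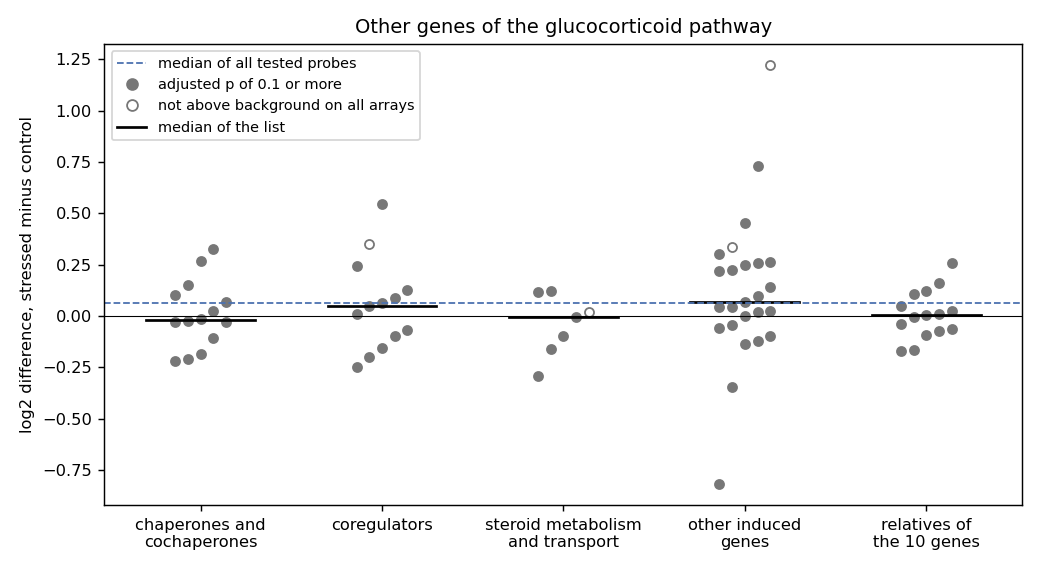
Log2 difference, stressed minus control (vertical axis), of each tested gene of the 5 lists (points, none with an adjusted p below 0.1), with the median of each list (black bar) and of all tested probes (dashed line). An open point, such as that of Pdk4 at 1.22, was not well above background on every array of both groups, and each list holds genes on both sides of 0.

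Marker genes of the cell types in the segment were read beside these results. All 8 neuronal, 5 motor neuronal, 7 astrocyte, 7 microglial and 7 oligodendrocyte markers on the array were detected and tested. The neuronal and astrocyte markers had mean levels of 3.05 to 3.18 and 2.56 to 2.98 in the control rats and of 3.08 to 3.26 and 2.77 to 3.07 in the stressed rats. At FDR below 0.1 in limma, no marker of neurons, motor neurons, astrocytes, microglia, Schwann cells, red blood cells or meninges and fibroblasts passed. Of the endothelial markers 1 of 7 did (Pecam1, log2 difference 0.40, adjusted p = 0.0931), and of the oligodendrocyte markers 1 of 7 (Mog). Of all tested probes 3.74% passed the same threshold. Pecam1 was 0.43 with the covariate (adjusted p = 0.107), 0.37 with normexp (adjusted p = 0.176) and 0.39 without control replicate 2 (adjusted p = 0.0241). An unadjusted p below 0.05 in limma was reached by 3 of 7 oligodendrocyte, 2 of 7 endothelial, 2 of 8 neuronal and 1 of 7 astrocyte markers. No marker of the other lists reached it, while 20.3% of all tested probes did. Markers of meninges and fibroblasts were detected, although the meninges were removed, with a mean level of -1.82 to -0.13 in the control rats and -1.92 to -0.59 in the stressed rats. Of these 7 markers 6 lay lower in stressed rats, with a median log2 difference of -0.32. Markers of Schwann cells, the myelin-forming cells of nerve roots, ranged from -1.67 to 2.19 in the control rats and from -1.56 to 0.86 in the stressed rats, and all 5 lay lower in stressed rats, with a median log2 difference of -1.03. Their part in the differences of the 10 genes was not tested.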

How the data were processed

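Lumbar cord RNA of 8 rats, 4 stressed and 4 control, was hybridised to 8 arrays. The intensity values that the authors deposited are processed signals of Agilent Feature Extraction 10.7.3.1, background-subtracted within each array, and no normalization between arrays was found. Here the 75th percentile of an array was subtracted from its log2 values, spots marked as outliers were set to missing and spots of a probe were averaged. Probes that passed the scanner's background test on 4 or more arrays were tested with limma 3.58.1 (R 4.3.3, data.table version 1.17.8), without covariates. Replicates were separate rats. Precision is limited by the number of arrays and by signal over background.

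The 10 genes, the lists and the alternatives were chosen with earlier results of these data known. Each list gave the genes at FDR below 0.1 and, where fewer than 3, those of smallest p up to 3. In the lists of coregulators and of relatives, 1 gene each is not reported here and was left out of the counts. Cell type markers were counted only, and Mog and Pecam1 were named after their values were seen. Probes were to be printed where they match a protein, but no protein table was used here, so 3 probes with an open reading frame were chosen by hand. The fit was tested on simulated data in which probes varied independently, so that test does not cover differences shared by many probes of an array.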

Additional observations from a re-analysis of the deposited data

Results flagged for a closer look

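In the 4 control rats, 1 value lay far from the others for 2 of the 12 probes. For Tsc22d3 control replicate 2 was the lowest control rat, and its gap to the nearest of the others was 0.830 of the range of the group. For the downstream probe of Nr3c2 control replicate 2 was again the lowest control rat, with a gap of 0.862 of the range. Both gaps exceed Dixon's critical value at the 95% level for 4 samples. Chance gives about 1.2 of the 24 groups tested, and 2 were found.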

How the results depend on the processing

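At FDR below 0.1, 885 probes and 2 of the 10 genes passed. The counts were 215 and 1 with normexp, 3010 and 3 without the filter on dim probes, 2317 and 1 (Tsc22d3) with the 5′ minus 3′ covariate, and 11983 and 6 with array weights, which gave control replicate 2 a weight of 0.107. Quantile normalization (1180 probes) and a variance trend with robust estimation (1295 probes) each left 1 gene, Sgk1. Leaving out 1 array gave 0 to 10038 probes and 0 to 7 genes, the highest without control replicate 2. Without control replicate 3, stressed replicate 1 or stressed replicate 2 limma called 0 probes, with 3003 to 3467 at an unadjusted p below 0.05. Of the called probes 74.0% were higher in stressed rats, 88.4% with normexp, 85.2% without the filter, 58.1% with quantile normalization, 47.3% with the covariate and 60.9% with 1 probe per gene symbol. The median of all probes moved from 0.06 to -0.05 with the covariate. The authors' table of values (885 probes), a filter on all 8 arrays (1079) and 1 probe per gene symbol (603) kept 2 genes, Sgk1 and Zbtb16. The choice of 1 probe per gene name (803 probes, 2 genes) was added after seeing the data.

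With the replicate number as a replicate block limma called 0 probes and 0 of the 10 genes, with 4292 probes and 4 genes at an unadjusted p below 0.05. The numbers did not pair the rats: same-numbered rats correlated at -0.0869 to 0.305, and 1 of the 8 rats correlated best with its own number. In both slide rows the replicate number was also the slide column, so this fit was a block on slide column as well.

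Signs changed as follows. The covariate turned Nr3c1 to 0.13, Nr3c2 to 0.00232, Fkbp4 to -0.0286 and Hsd11b1 to -0.0163, and the mean of all probes turned Nr3c1 to 0.15 and Nr3c2 to 0.0925. Array weights turned Tsc22d3 to -0.15. Leaving out 1 array gave -0.0289 to 0.0503 for Fkbp4, -0.20 to 0.10 for Tsc22d3, -0.0291 to 0.0989 for Errfi1 and -0.0249 to 0.0853 for Hsd11b1. The cause was not tested.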
